A study of Daucus carota with 18 samples.

Results

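The difference in transcript level between 2 tissues of the carrot root, the outer phloem when purple (POP) and the inner phloem when not purple (NPIP), was compared between the dark purple sample set dP2 and the pale purple set pP. The comparison asked for which genes the outer against inner difference was lost, grew or reversed in dP2 relative to pP, and which of the tissues carried the change. It used the 12 libraries of dP2 and pP among the 18 of the series, chosen by their titles. The POP and the NPIP of 3 roots were sequenced for each set, and each root was a separate plant.

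Roots of dP2 had a high anthocyanin concentration in the outer phloem, a non-purple inner phloem and a purple xylem. They came from a family of a segregating purple carrot population and were grown in the field at Hancock, Wisconsin. Roots of pP had a low concentration in the outer phloem, and both their inner phloem and their xylem were non-purple. They came from a sibling family and were grown in the field at El Centro, California. The family, the site, the xylem colour, the pigment level and the set cannot be told apart in any value that follows. The remaining set, dP1, was dark purple like dP2 in the outer phloem, had a non-purple xylem like pP, and shared the family and the site of pP. It is not part of the contrast and is described where it helps to place the other sets.

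Anthocyanins are purple vacuolar pigments made from phenylalanine. Phenylalanine ammonia-lyase (PAL) and 4-coumarate-CoA ligase (4CL) feed the general phenylpropanoid pathway, from which lignin and many defence compounds are also made. Chalcone synthase (CHS) commits the flow to flavonoids, and later enzymes form, colour and glycosylate the pigment before a glutathione S-transferase and membrane transporters bring it into the vacuole. The later steps are switched on in many plants by complexes of MYB and bHLH transcription factors. In a carrot taproot the phloem lies outside the cambium and the xylem inside it, so that NPIP was the part of the phloem nearer to the xylem.

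The 12 libraries held between 6918267 and 9133313 expected counts each. Levels are given as CPM, which put the reads of a gene on the scale of a library of fixed size and were corrected with TMM factors, and 19859 genes reached 1 CPM in 3 or more libraries and were tested. Log2 values of libraries from the same group correlated with r between 0.915 and 0.958 over these genes, and edgeR estimated a common biological coefficient of variation of 0.384. In counts simulated from these libraries, the test called 26% of genes whose tissue effects differed by 2 on the log2 scale and 86% of those that differed by 4. The changed genes had an average log2 CPM of at least 1, and each change was placed in dP2 POP with the other groups at an equal mean. Small differences were mostly below the reach of the test under these settings. The rates do not cover changes in the NPIP or genes that also differed between sets.

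The tissue effect, the log2 fold change of POP over NPIP, differed between dP2 and pP in 111 genes, which was 0.559% of those tested (edgeR quasi-likelihood F test, FDR under 0.05). It was higher in dP2 in 77 genes (0.388%) and lower in dP2 in 34 genes (0.171%). Each set had many more genes that differed between its own tissues. In dP2, 2666 genes (13.4%) did, of which 1831 (9.22%) were higher and 835 (4.20%) lower in POP. In pP, 1783 genes (8.98%) did, of which 1247 (6.28%) were higher and 536 (2.70%) lower in POP. The size of the difference of tissue effects in the 111 genes was between 0.95 and 9.87 on the log2 scale, with a median of 3.27. The count depended on the model and on single libraries. With root as a block it was 69, and 39 of these genes were among the 111. It was 10 without dP2 POP replicate 3 and 220 without pP POP replicate 2, and 9 and 98 of those genes were among the 111. The median over all genes tested was −0.05, and 2771 genes (14.0%) had an unadjusted p under 0.05, 1363 of them (6.86%) higher and 1408 (7.09%) lower in dP2.

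**Figure D1:**
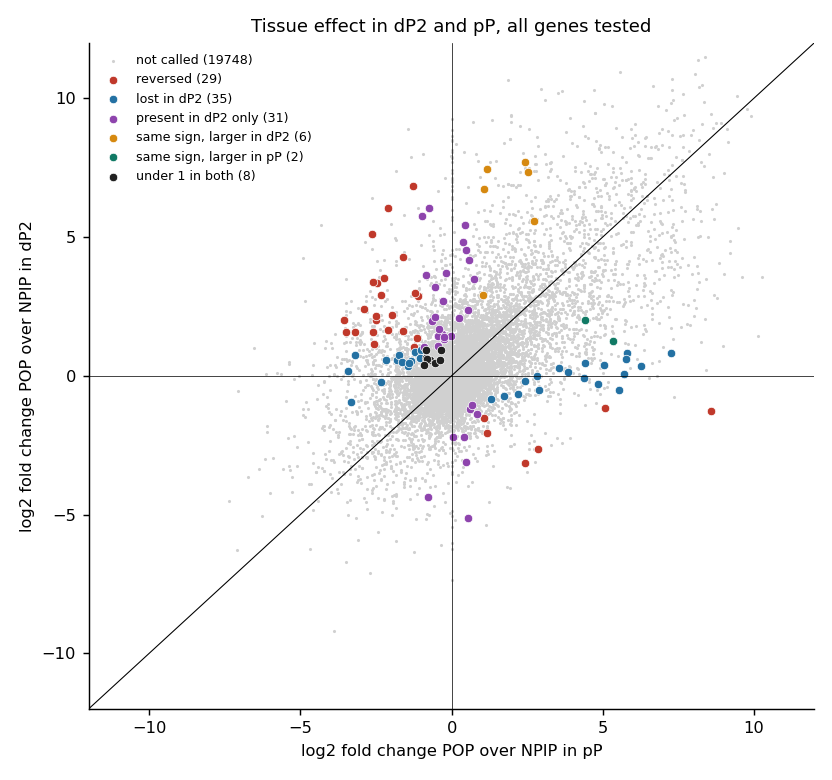
Log2 fold change of POP over NPIP in dP2 (vertical) against that in pP (horizontal) for each of the 19859 genes tested, from the edgeR fit of 12 libraries. Grey points are genes not called, coloured points are the 111 called genes by class, and the diagonal marks equal tissue effects; 35 called genes are classed as lost in dP2, 31 as present in dP2 only and 29 as reversed.

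The called genes were sorted by the size of the tissue effect in each set, with 1 on the log2 scale as the limit. The effect was lost in dP2, that is under 1 there and at least 1 in pP, in 35 of the 111 genes (31.5%), against 8.35% of all genes tested. It was present in dP2 only in 31 genes (27.9%), against 9.44% of all genes. It was reversed, with at least 1 in both sets and opposite signs, in 29 genes (26.1%), against 1.58% of all genes. It had the same sign and was larger in dP2 in 6 genes and larger in pP in 2 genes, and it was under 1 in both sets in 8 genes. The classes rest on size alone and not on the test of each tissue effect. The effect in dP2 ran from −0.945 to 0.945 among lost genes, and in some of them it was called with the sign opposite to pP. Likewise, some genes classed as present in dP2 only had a called effect under 1 in pP. These shares describe genes that were called for a large difference and were not tested.

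Within the classes the directions were unequal. Of the 29 reversed genes, 23 were higher in POP in dP2 and higher in NPIP in pP, and 6 went the other way. Their median tissue effect was 2.004 in dP2 and −2.10 in pP on the log2 scale. Of the 31 genes present in dP2 only, 23 were higher in the POP of dP2 and 8 were higher in its NPIP. Of the 35 lost genes, 18 were higher in the POP of pP and 17 were higher in its NPIP, so that loss had no prevailing direction. All 6 genes with a larger effect in dP2 were higher in POP in both sets, with a median of 7.02 in dP2 and 1.81 in pP. Both tissue effects were called with opposite signs in 26 of the 111 genes, out of 28 such genes among all 19859.

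The inner phloem carried the larger part of the change. The level in dP2 was compared with the level in pP within each tissue, and the NPIP differed by more than the POP in 84 of the 111 genes (75.7%), against 53.9% of all genes tested. The median size of the set difference in the called genes was 2.20 in the NPIP and 1.13 in the POP on the log2 scale, while over all genes it was 0.69 and 0.64. The NPIP of dP2 differed from the NPIP of pP in 99 of the 111 genes, against 34.2% of all genes (edgeR, FDR under 0.05). The POP of dP2 differed from the POP of pP in 63 of them, against 30.2% of all genes. Both tissues differed in 51 genes (45.9%, against 19.6% of all genes), the NPIP alone in 48 (43.2%, against 14.6%) and the POP alone in 12 (10.8%, against 10.6%). Libraries of the NPIP did not overlap between dP2 and pP in 105 of the 111 genes (47.3% of all genes), and those of the POP in 75 (47.6% of all genes). A called gene needs a large set difference in at least 1 tissue. Shares above those of all genes were therefore partly set by the call itself, and they were not tested. Without dP2 POP replicate 3 the NPIP differed by more than the POP in 4 of only 10 called genes (40.0%).

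**Figure D2:**
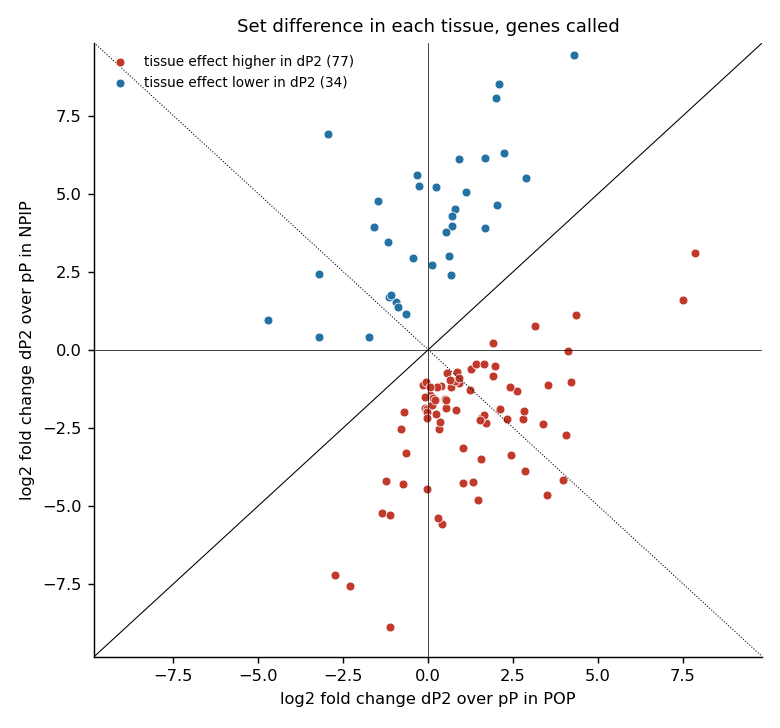
Log2 fold change of dP2 over pP in the NPIP (vertical) against that in the POP (horizontal) for the 111 called genes, red where the tissue effect was higher in dP2 (77 genes) and blue where it was lower (34 genes). The solid diagonal marks equal set differences and the dotted diagonal differences of equal size and opposite sign; all blue points lie above 0 on the vertical axis, and 72 of the 77 red points lie below it.

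The set difference of the NPIP had a fixed direction in nearly every called gene. All 34 genes with a lower tissue effect in dP2 had a higher NPIP level in dP2, and 72 of the 77 with a higher tissue effect had a lower NPIP level there. The POP was less regular, with 18 of the 34 genes and 59 of the 77 genes higher in dP2. With 1 on the log2 scale as the limit, the NPIP alone differed between sets in 47 genes and the POP alone in 11. Both tissues differed in opposite directions in 31 genes and in the same direction in 18, and neither reached the limit in 4. The share with opposite directions was 27.9% of called genes, against 1.39% of all genes. The NPIP alone differed in 17 of the 35 lost genes, and both tissues differed in opposite directions in 18 of the 29 reversed genes. The tissues enter the difference of tissue effects with opposite signs, so these directions were partly set by the call itself.

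The dP1 libraries, which had no part in the contrast, lay closer to pP. The tissue effect of dP1 was nearer to that of pP in 101 of the 111 called genes (91.0%) and nearer to that of dP2 in 10, while over all genes it was nearer to pP in 67.5%. Of the 77 genes with a higher effect in dP2, 69 were nearer to pP, and of the 34 with a lower effect, 32 were. The count was 33 of 35 among lost genes, 29 of 31 among genes present in dP2 only and 26 of 29 among reversed genes. The dP1 level was nearer to pP in the NPIP in 85 of the 111 genes (76.6%, against 71.1% of all genes) and in the POP in 90 (81.1%, against 70.96%). Most genes lay nearer to pP in dP1 whether called or not, and the counts were not tested. Some dP1 effects rest on very few reads in a tissue, as in DCAR_010700. dP1 is dark purple like dP2 and shares its xylem colour, family and site with pP, and what lay behind its position was not tested.

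Sucrose invertase (DCAR_009482), which splits sucrose into glucose and fructose, was called for a tissue effect that dP2 had and pP did not. The study had reported it from the same libraries as higher in the POP of dP2 alone among its sets, so the call is not independent evidence. The primers that were designed for this transcript are shown here, in lower case and from 5′ to 3′, because they identify the transcript.
sucrose invertase, forward: tgagcaagcctcagcaataa
sucrose invertase, reverse: gtatcgcagcctgtaactatcc

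Invertase had 13.8, 19.2 and 17.5 CPM in dP2 POP and 0.442, 0.551 and 1.15 CPM in dP2 NPIP. It had 5.13, 6.34 and 3.99 CPM in pP POP and 3.14, 3.51 and 4.34 CPM in pP NPIP. The dP2 POP libraries were the highest and the dP2 NPIP libraries the lowest of the 12, and the tissues of pP lay between them and overlapped. The log2 fold change of POP over NPIP was 4.54 in dP2 (SE 0.39) and 0.49 in pP (SE 0.33), a difference of 4.05 (SE 0.50, edgeR FDR 0.0171). Between the sets, invertase was higher in dP2 by 1.71 on the log2 scale in the POP and lower by 2.34 in the NPIP (log2 fold change −2.34), and both changes passed the test (edgeR FDR 0.00401 and 0.00117). The tissue effect in dP1 was −0.47 (SE 0.46). The call was kept in 11 of 12 fits that left out 1 library and was just lost without dP2 POP replicate 3 (FDR 0.0502).

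Of 152 tested genes that the study listed in its regions of chromosome 3 linked to root phloem pigment, 4 were called, where 0.559% of all genes were. These genes had been listed for tissue differences in the same libraries, so their count is not independent evidence. The genes called were 3 of the P1 region, DCAR_009042, DCAR_009155 and DCAR_009199, for which no description was found, and a pathogen-related protein of the P3 region.

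DCAR_009042 had 36.1, 22.3 and 10.9 CPM in dP2 POP and 0.221, 0.220 and 0.573 CPM in dP2 NPIP, against 0.831, 2.34 and 0.972 CPM in pP POP and 3.14, 2.97 and 0.743 CPM in pP NPIP. All dP2 POP libraries stood above the other 9, and the tissues of pP overlapped. The log2 fold change of POP over NPIP was 6.04 in dP2 and −0.74 in pP, a difference of 6.78 (SE 0.99, edgeR FDR 0.0193), and it was 1.80 (SE 0.92) in dP1. The NPIP of dP2 held 9 reads of this gene in all, and the call was lost with root as a block (FDR 0.0510) and in 5 of the 12 fits that left out 1 library.

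DCAR_009155 was a reversed gene. It had 9.63, 17.3 and 13.8 CPM in dP2 POP and 5.08, 4.30 and 4.36 CPM in dP2 NPIP, against 0.970, 10.5 and 2.38 CPM in pP POP and 37.0, 67.7 and 50.5 CPM in pP NPIP. POP lay above NPIP in every dP2 library and below it in every pP library. The log2 fold change was 1.57 in dP2, which did not pass the test, and −3.49 in pP, which did (edgeR FDR 0.130 and 0.0110). The difference was 5.06 (SE 0.91, FDR 0.0410), and the call was kept in only 2 of the 12 fits that left out 1 library, where the FDR reached 0.118. The effect in dP1 was −1.70 (SE 0.76), with the sign of pP.

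In DCAR_009199 the POP of the sets overlapped and the NPIP did not. The gene had 45.0, 29.9 and 37.8 CPM in dP2 POP and 11.9, 13.6 and 9.29 CPM in dP2 NPIP, against 19.0, 38.1 and 21.8 CPM in pP POP and 35.9, 34.8 and 34.9 CPM in pP NPIP. The NPIP was lower in dP2 by 1.60 on the log2 scale (log2 fold change −1.60, edgeR FDR 0.00163), while the POP differed by 0.52 (FDR 0.162). The tissue effect was 1.69 in dP2 and −0.42 in pP, a difference of 2.12 (SE 0.38, FDR 0.0410), and −0.12 (SE 0.28) in dP1. The call was lost with root as a block (FDR 0.0675) and in 11 of the 12 fits that left out 1 library.

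The pathogen-related protein (DCAR_010700), named for a family of proteins that plants make on infection, kept its direction and shrank in dP2. It had 129, 65.8 and 113 CPM in dP2 POP and 28.3, 22.9 and 25.5 CPM in dP2 NPIP, against 77.2, 59.3 and 63.8 CPM in pP POP and 2.68, 3.29 and 3.47 CPM in pP NPIP. POP stood above NPIP in both sets without overlap, and the sets overlapped in the POP and not in the NPIP. The tissue effects differed by −2.40 (edgeR FDR 0.0184). The NPIP was higher in dP2 by 3.02 on the log2 scale (SE 0.26, edgeR FDR 6.7e-05). In dP1 the NPIP libraries together held 1 read of this gene, and no tissue effect is given for it. The call of the difference of tissue effects was lost in 2 of the 12 fits that left out 1 library, without dP2 POP replicate 3 and without pP NPIP replicate 1.

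The other 106 called genes had no description in the sources used here, and the strongest of each direction are given by their identifier. DCAR_020634 had 7.32, 9.77 and 6.92 CPM in dP2 POP and 0.663, 0.661 and 0.459 CPM in dP2 NPIP, against 22.7, 19.6 and 18.8 CPM in pP POP and 26.3, 19.0 and 23.5 CPM in pP NPIP. Its level was lower in dP2 in both tissues and by far the most in the NPIP (log2 fold changes −1.35 in the POP and −5.23 in the NPIP, edgeR FDR 0.00185 and 1.23e-05), so that a tissue effect of 3.72 arose in dP2, where pP had −0.17. The difference of 3.89 (SE 0.34) had the smallest FDR of the comparison, 0.00507, and was called in all 12 fits that left out 1 library.

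DCAR_024791 showed a tissue effect that grew. It had 64.6, 119 and 84.8 CPM in dP2 POP and 0.332, 0.331 and 0.573 CPM in dP2 NPIP, against 491, 567 and 254 CPM in pP POP and 54.6, 93.5 and 95.1 CPM in pP NPIP. POP was above NPIP in both sets, the sets overlapped in neither tissue, and the dP2 NPIP was nearly empty of reads. The effect was 7.72 in dP2 and 2.43 in pP, a difference of 5.29 (SE 0.58, edgeR FDR 0.0171), and it was 6.47 (SE 0.46) in dP1, on the side of dP2. The call was kept in all 12 fits that left out 1 library.

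DCAR_008777 showed a tissue effect that was lost. It had 50.5, 51.5 and 45.6 CPM in dP2 POP and 57.1, 45.1 and 67.1 CPM in dP2 NPIP, against 9.84, 14.2 and 12.5 CPM in pP POP and 1.75, 2.87 and 2.11 CPM in pP NPIP. The tissues overlapped in dP2 and were apart in pP. The gene was higher in dP2 by 2.01 in the POP and by 4.64 in the NPIP on the log2 scale (edgeR FDR 0.000300 and 1.23e-05). The effect was −0.20 in dP2 and 2.43 in pP, a difference of −2.63 (SE 0.32, FDR 0.0171), and 2.33 (SE 0.56) in dP1.

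DCAR_026288 was the example in which the outer phloem alone differed between sets. It had 3.66, 2.0 and 3.10 CPM in dP2 POP and 64.9, 75.0 and 44.5 CPM in dP2 NPIP, against 22.2, 36.3 and 22.6 CPM in pP POP and 62.3, 43.3 and 33.7 CPM in pP NPIP. The NPIP libraries of the sets overlapped, and the dP2 POP libraries were the lowest of all. The POP had a log2 fold change of −3.20 between dP2 and pP (edgeR FDR 0.000291) and the NPIP of 0.40 (FDR 0.330). The tissue effect was −4.39 in dP2 and −0.78 in pP, a difference of −3.60 (SE 0.46, FDR 0.0171), and −1.42 (SE 0.24) in dP1. The calls of DCAR_008777 and DCAR_026288 were each lost only without dP2 POP replicate 3 (FDR 0.0502 and 0.0506).

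**Figure D3:**
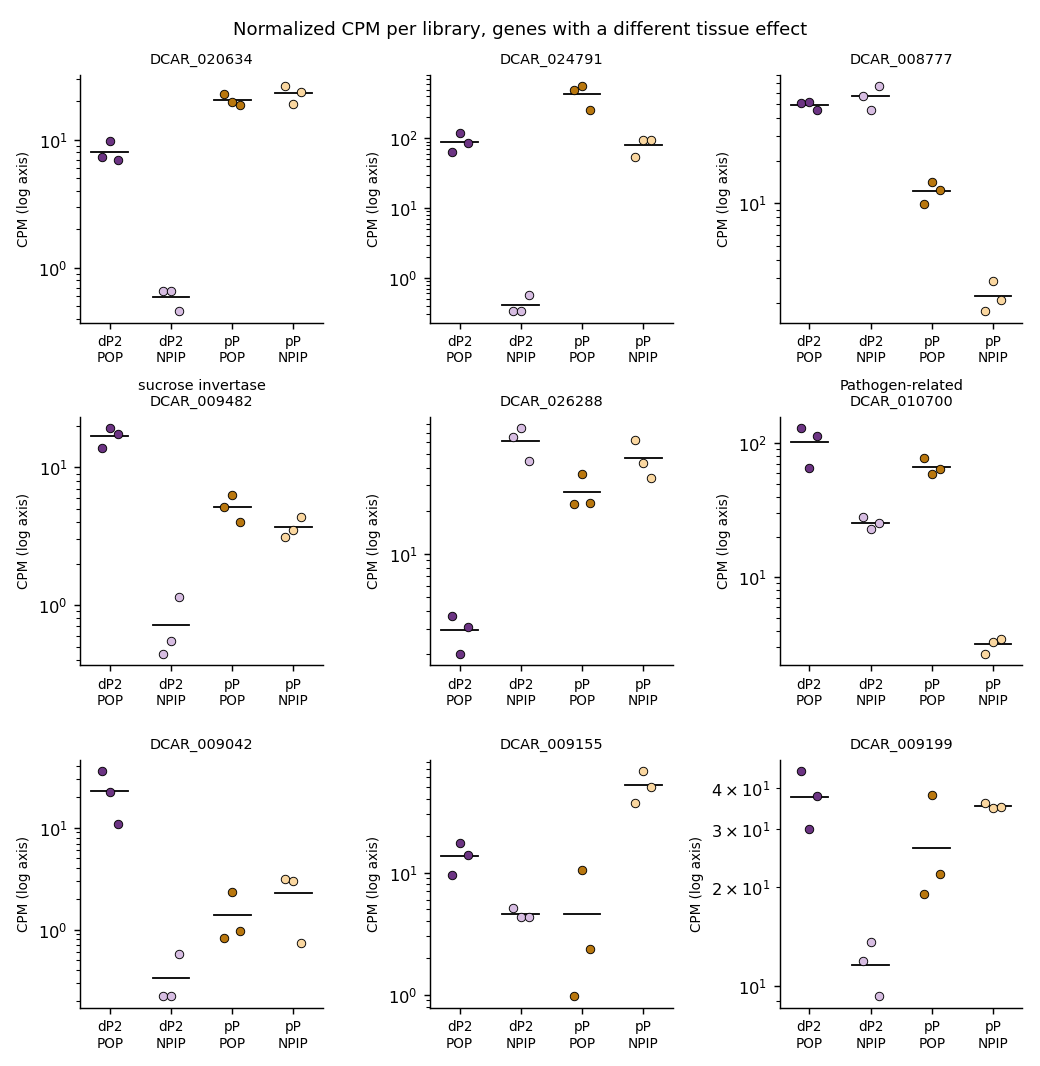
Normalized CPM on log axes of the 9 named genes with a different tissue effect, a panel per gene; points are libraries (3 per group) and lines are group means, with the groups dP2 POP, dP2 NPIP, pP POP and pP NPIP from left to right. In DCAR_020634 and DCAR_024791 the dP2 NPIP lies far below the other groups, in DCAR_010700 and DCAR_008777 the pP NPIP does, and in DCAR_026288 the dP2 POP does.

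A MADS-box transcription factor of the P3 region (DCAR_010757) came close to the threshold. Its primers are shown because the gene is a pigment candidate whose level differed between the sets in the inner phloem.
MADS-box, forward: accatcttgaggcaacaactac
MADS-box, reverse: cccttgcaggcttatttcca

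The MADS-box gene had 13.05, 10.8 and 9.42 CPM in dP2 POP and 0.332, 0.441 and 0.573 CPM in dP2 NPIP, against 21.2, 13.7 and 13.2 CPM in pP POP and 5.12, 2.55 and 7.18 CPM in pP NPIP. POP lay above NPIP in both sets, and dP2 lay below pP in every library of either tissue, by far the more in the NPIP. The NPIP was lower in dP2 (log2 fold change −3.42, SE 0.45, edgeR FDR 0.000430) and the POP was not called (−0.53, FDR 0.283). The tissue effect was 4.58 in dP2 and 1.69 in pP, and the difference of 2.89 (SE 0.57) had an FDR of 0.0605. Root as a block gave an FDR of 0.0880, and DESeq2 and the likelihood ratio test called the gene (adjusted p 0.00169 and 0.00234).

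A pair of WRKY transcription factors, a family known from defence and stress responses, also came close to the threshold, and they were chosen after their values were seen. The gene described as WRKY71 (DCAR_005083) had 35.7, 41.8 and 32.2 CPM in dP2 POP and 0.221, 0.331 and 0.459 CPM in dP2 NPIP, against 34.9, 21.4 and 46.3 CPM in pP POP and 1.98, 1.49 and 3.59 CPM in pP NPIP. The POP of the sets overlapped and the NPIP did not (log2 fold change of dP2 over pP in the NPIP −2.75, edgeR FDR 0.00171), and the difference of tissue effects was 2.84 (SE 0.58, FDR 0.0647, and called with an FDR of 0.0439 with root as a block). In the gene described as WRKY6 (DCAR_019267) the NPIP held 6 reads in dP2 and 424 in pP, and the set difference there was −6.11 (FDR 0.000269). The POP of WRKY6 was called lower in dP2 as well, by less (log2 fold change −1.84, edgeR FDR 0.0204). The difference of its tissue effects was 4.27 (SE 0.88, FDR 0.0677). Of the 12 listed WRKY genes, 6 had a positive and 6 a negative difference of tissue effects.

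In the anthocyanin genes the call depended on the test for 2 regulators. By edgeR's quasi-likelihood test none of 8 regulators, 15 enzymes and 4 transport genes was called, against 0.559% of all genes, and 3 regulators, 2 enzymes and 1 transport gene had an unadjusted p under 0.05 (14.0% of all genes). The tissue effects themselves were large and mostly called, in genes that the study had picked with the tissue differences of these libraries in view. In dP2, 6 regulators, 12 enzymes and 3 transport genes were higher in POP and 1 transport gene was lower (edgeR, FDR under 0.05). Of all genes, 9.22% were higher and 4.20% lower there. In pP the counts of the listed genes were 5, 14, 3 and 1, where 6.28% of all genes were higher and 2.70% lower. DESeq2 and the likelihood ratio test each called 2 regulators, the MADS-box gene and DcERF1, and no enzyme or transport gene, although DESeq2 gave an adjusted p for only 13 of the 15 enzymes. Over all genes, DESeq2 called 857 of 20666 and the likelihood ratio test called 752 of 19859. A median difference of 0.90 in regulators, 0.46 in enzymes and 1.46 in transport genes stood beside −0.05 over all genes. The signs were split in the first 2 lists, with 4 positive and 4 negative regulators and 8 positive and 7 negative enzymes. These medians therefore show no prevailing direction in regulators or enzymes.

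**Figure D4:**
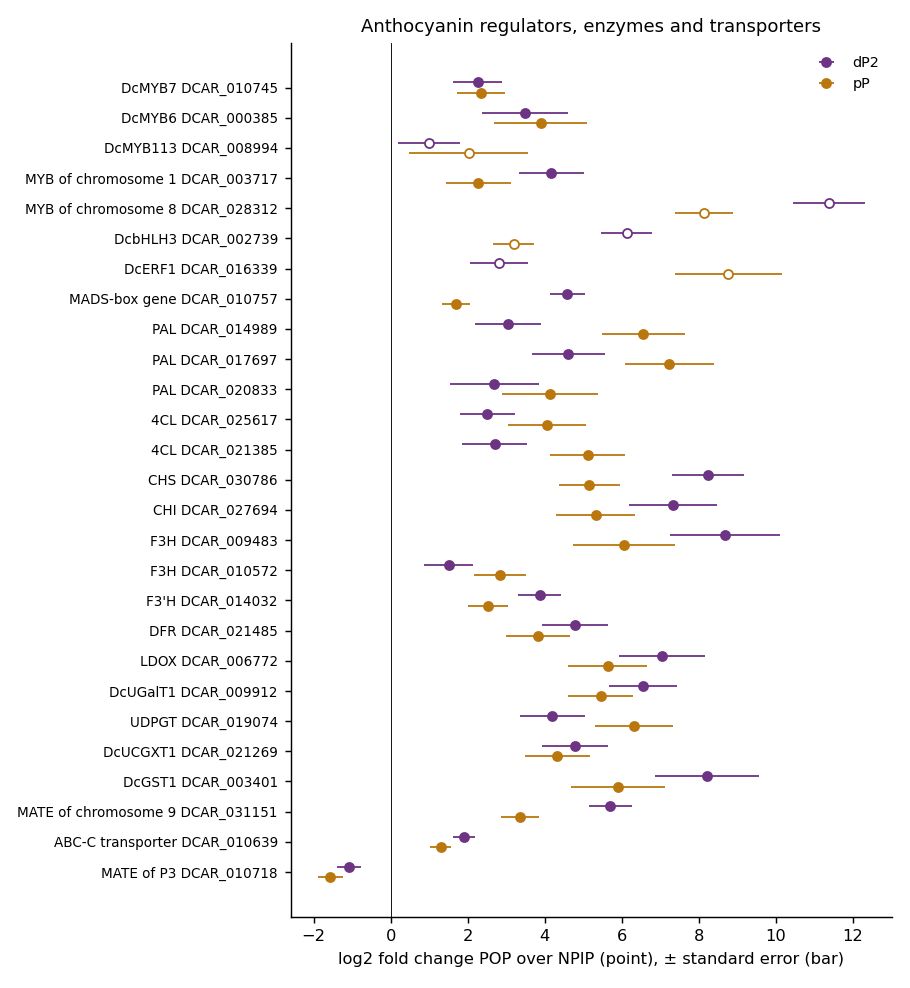
Log2 fold change of POP over NPIP (points) with its standard error (bars) in dP2 (purple, upper) and pP (brown, lower) for the 8 anthocyanin regulators, 15 enzymes and 4 transport genes. Points are open where a group held 5 or fewer reads in all, since those values depend on the fit; PAL and 4CL lie further right in pP, and CHS and most later enzymes further right in dP2.

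The MADS-box gene had the smallest p of the regulators, and DcbHLH3 (DCAR_002739), a bHLH factor, the next. It had 9.998, 16.4 and 15.7 CPM in dP2 POP and 0.111, 0.220 and 0.229 CPM in dP2 NPIP, against 6.37, 19.2 and 5.29 CPM in pP POP and 1.51, 1.06 and 0.743 CPM in pP NPIP. The POP of the sets overlapped, and the NPIP did not. The NPIP was lower in dP2 (log2 fold change −2.48, edgeR FDR 0.0176), with 5 reads in dP2 and 29 in pP, and the difference of tissue effects was 2.93 (SE 0.83, FDR 0.146).

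DcERF1 (DCAR_016339), an ethylene response factor, went the other way. It had 20.1, 13.8 and 10.7 CPM in dP2 POP and 1.11, 0.551 and 4.70 CPM in dP2 NPIP, against 2.91, 9.65 and 6.80 CPM in pP POP, and it had no read in any pP NPIP library. The POP was thus at least 56.4-fold higher than the NPIP in pP, taking 3 reads over the group as the floor, and the log2 fold change in dP2 was 2.81 (SE 0.76). Replicate 3 of the dP2 NPIP held 41 of the 56 reads of that group. The difference of tissue effects was not called by edgeR's quasi-likelihood test (FDR 0.186), but DESeq2 and the likelihood ratio test called it (adjusted p 0.0248 and 0.0105).

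The MYB of chromosome 8 (DCAR_028312) had 45.0, 50.4 and 23.7 CPM in dP2 POP and no read in dP2 NPIP, against 12.2, 38.7 and 26.5 CPM in pP POP and 2 reads in pP NPIP. The POP was at least 353-fold higher than the NPIP in dP2, and 337-fold higher in pP with an exact 95% counting interval of 93.0 to 2791. DcMYB6 and DcMYB7, a pair of MYB factors of carrot, had differences of tissue effects of −0.42 (SE 1.56) and −0.09 (SE 0.96). DcMYB113, a MYB activator, was taken as DCAR_008994 from the study's primer list, while the study's text gives another identifier, so the name of this gene is uncertain. It had 3.29, 3.76 and 8.11 CPM in dP2 POP and 1.11, 4.63 and 1.84 CPM in dP2 NPIP, while all pP POP libraries held 5 reads and all pP NPIP libraries held 1. It was higher in dP2 in both tissues (edgeR FDR 0.00800 in the POP and 0.00652 in the NPIP), and its tissue effect was called in neither set.

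The first steps of the pathway and most later ones differed in the sign of their values. All 5 genes of PAL and 4CL had a negative difference of tissue effects, with a median of −2.41, and 8 of the 10 later enzymes had a positive one, with a median of 1.22. None of these values passed the test on its own, and 3 of the 8 positive ones turned negative without pP NPIP replicate 2. The PAL and 4CL genes were higher in the NPIP of dP2 in 5 of 5 genes (edgeR, FDR under 0.05, against 18.1% of all genes) and in the POP of dP2 in 3 of 5 (against 16.2%), while of the 10 later enzymes none was called in the POP and CHS alone, which was lower in dP2, in the NPIP (against 16.1%).

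The PAL gene DCAR_014989 had 695, 1331 and 694 CPM in dP2 POP and 18.9, 37.3 and 271 CPM in dP2 NPIP, against 55.7, 141 and 109 CPM in pP POP and 0.582, 1.59 and 0.991 CPM in pP NPIP. Each dP2 NPIP library lay above each pP NPIP library, and dP2 NPIP replicate 3 lay above the pP POP libraries as well. The tissue effect was 3.05 in dP2 (SE 0.85) and 6.56 in pP (SE 1.07), a difference of −3.51 (SE 1.25, edgeR FDR 0.241). The effect in dP1 was 5.67 (SE 0.41).

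Replicate 3 of the dP2 NPIP was the highest of its group in all 5 genes. This library was also the highest of its group in DcERF1 and CHS, and the lowest in WRKY6. In the 4CL gene DCAR_021385 it had 299 CPM beside 19.2 and 42.6 CPM in the other dP2 NPIP libraries, and in the PAL gene DCAR_020833 it had 725 beside 42.9 and 101 CPM. Without it the difference of tissue effects was −1.55, −0.59 and 0.56 in the PAL genes DCAR_014989, DCAR_017697 and DCAR_020833, and 0.10 and −0.45 in the 4CL genes DCAR_025617 and DCAR_021385, so that the negative direction was lost in 2 of the 5. The higher level in the NPIP of dP2 remained called in all 5 genes without it, with log2 fold changes between 2.39 and 4.70 (edgeR FDR between 0.000575 and 0.0475). With it they were between 4.35 and 6.66 (FDR between 0.00119 and 0.0135). What set this library apart was not tested.

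CHS (DCAR_030786) is shown by its primers because it is the step that follows PAL and 4CL and its value had the other sign.
CHS, forward: ccctgtaattgggatcgagaag
CHS, reverse: tttgaggaggtggaatgttagg

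CHS had 197, 365 and 472 CPM in dP2 POP and 0.442, 0.441 and 2.52 CPM in dP2 NPIP, against 90.5, 507 and 199 CPM in pP POP and 8.27, 10.2 and 3.72 CPM in pP NPIP. The POP overlapped between sets, and the NPIP of dP2 lay below that of pP in every library. The NPIP was lower in dP2 (log2 fold change −2.70, SE 0.82, edgeR FDR 0.0270) and the POP was not called (0.38, FDR 0.692). The tissue effect was 8.24 in dP2 and 5.16 in pP, and the difference of 3.08 (SE 1.05) did not pass the test (FDR 0.225).

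**Figure D5:**
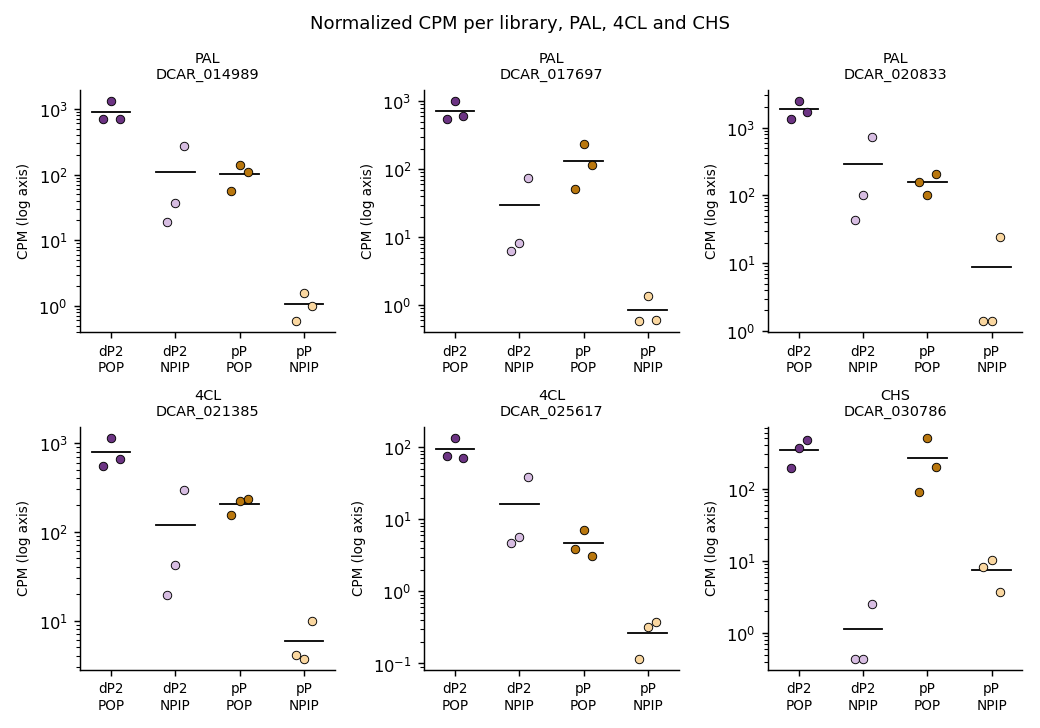
Normalized CPM on log axes of the 3 PAL genes, both 4CL genes and CHS, a panel per gene; points are libraries (3 per group) and lines are group means, with dP2 POP, dP2 NPIP, pP POP and pP NPIP from left to right. In PAL and 4CL the dP2 NPIP lies above the pP NPIP, with replicate 3 highest, and in CHS it lies below it.

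Leucoanthocyanidin dioxygenase (LDOX, DCAR_006772), which forms the coloured anthocyanidin, had 112, 170 and 225 CPM in dP2 POP, against 23.0, 301 and 103 CPM in pP POP, and dihydroflavonol 4-reductase (DFR, DCAR_021485) had 28.9, 70.3 and 107 CPM in dP2 POP, against 5.82, 72.1 and 18.1 CPM in pP POP. Replicate 2 of pP POP was the highest of its group in both. The differences of tissue effects were 1.40 in LDOX (SE 1.33) and 0.97 in DFR (SE 1.10), and they were 2.01 in chalcone isomerase (SE 1.54), 1.34 in flavonoid 3′-hydroxylase (SE 0.72) and 1.10 in the galactosyltransferase DcUGalT1 (SE 1.08). Flavanone 3-hydroxylase was split, with 2.63 (SE 2.0) in DCAR_009483 and −1.33 (SE 0.89) in DCAR_010572.

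All 4 transport genes had a positive difference of tissue effects, that of DcGST1 becoming negative without pP NPIP replicate 2, and none was called. A MATE transporter of chromosome 9 (DCAR_031151), of a family known to carry flavonoids into vacuoles in other plants, had 11.3, 28.2 and 26.7 CPM in dP2 POP and 0.221, 0.441 and 0.573 CPM in dP2 NPIP, against 7.20, 16.4 and 7.45 CPM in pP POP and 0.932, 0.850 and 1.24 CPM in pP NPIP. The NPIP libraries did not overlap between sets, although their difference was not called (edgeR FDR 0.111), and the difference of tissue effects was 2.35 (SE 0.71, FDR 0.172). The glutathione S-transferase DcGST1 had 2.32 (SE 1.84), the ABC-C transporter 0.61 (SE 0.39) and the MATE of P3, the transport gene that was lower in POP, 0.48 (SE 0.44).

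Among 71 listed transcription factors edgeR's quasi-likelihood test called none, DESeq2 called 6 and the likelihood ratio test called 7. Over all genes these last 2 methods called 857 of 20666 and 752 of 19859. WRKY71, WRKY6 and DcERF1 were among the factors called by both. Of the 71, 15 had an unadjusted p under 0.05, 5 of them higher and 10 lower in dP2, where 14.0% of all genes did. The MYB family had 6 positive and 12 negative values among 18, the ERF family 1 and 5 among 6, and the bHLH family 4 and 3 among 7. The factors had been listed by the study for tissue differences in these libraries.

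Markers of the tissues differed more between sets than in their tissue effect, as genes did in general. Of all genes, 34.2% were called between sets in the NPIP and 30.2% in the POP, against 0.559% for the difference of tissue effects. The 3 APL homologs, genes that specify phloem in Arabidopsis, were lower in POP than in NPIP in both sets, and their differences of tissue effects were −0.33, −0.95 and 1.94 on the log2 scale, with none called and only 1 read in pP POP behind the last value. They were all higher in the NPIP of dP2 than in the NPIP of pP, by 2.19 to 2.44 (edgeR FDR between 0.00335 and 0.00689, against 18.1% of all genes called higher). In the POP, 2 of the 3 were called higher in dP2 (against 16.2% of all genes). In DCAR_019886 the sum over the libraries was 83 reads in dP2 POP and 792 in dP2 NPIP, against 30 in pP POP and 149 in pP NPIP. The secondary wall genes KNAT7 and IRX15-LIKE were higher in POP in both sets, and differed in tissue effect by −0.71 and −0.44, neither called. KNAT7 was also higher in dP2 in both tissues (FDR 0.0169 in the POP and 0.00492 in the NPIP). IRX15-LIKE was called between the sets in neither tissue (edgeR FDR 0.251 in the POP and 0.157 in the NPIP). More cells of a type and more RNA per cell cannot be told apart in such bulk samples, and the part of these markers in the called genes was not tested. The actin gene used as a reference differed in tissue effect by 0.44 (SE 0.27) and was called in no comparison.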

How the data were processed

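RNA of the POP and NPIP of 9 roots was sequenced in 18 libraries, of which the 12 of dP2 and pP were tested. The authors trimmed reads with Trimmomatic 0.32, used Bowtie2 and RSEM to quantify genes of the V1.0 annotation, and deposited expected counts per gene without normalization. RSEM shares reads among similar genes, and strand was not given in the sources used here, so that near-identical and overlapping genes are uncertain. After rounding, a gene was kept if 3 or more of the 12 libraries reached 1 CPM. A model with 4 groups and TMM factors was fitted in R 4.3.3, and edgeR 4.0.16 tested each contrast by its quasi-likelihood method, with Benjamini-Hochberg FDR called under 0.05. The test was checked on simulated data with 200 changed genes. SE is the size of the log2 fold change divided by the square root of F. dP1 was fitted alone. DESeq2 1.42.0 was an alternative. Intervals and floors cover counting error only.

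The members and gene lists were chosen with earlier results of these data known. By the study's methods both tissues were taken from each root, and a shared replicate number was read as a shared root. The correlations did not bear this out for every root of pP, so values with root as a block rest on that reading. Deviations of same-numbered tissues correlated with r of 0.541, 0.319 and 0.399 in dP2 and of −0.230, 0.576 and −0.086 in pP, where POP 1 with NPIP 3 gave 0.578 and POP 3 with NPIP 1 gave 0.420. The genes named were to be those of smallest p in each direction and in each class, every called gene with a description, and the pigment and marker lists. Of genes without a description, 2 in each direction are given, and marker and gene lists defined by description words were not used here.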

Additional observations from a re-analysis of the deposited data

Results flagged for a closer look

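The tissue effect differed between dP2 and pP, by a test of the difference itself, in each of the named genes that follow, and the values are differences of log2 fold changes, POP over NPIP in dP2 minus the same in pP. The difference was 3.89 in DCAR_020634, 5.29 in DCAR_024791, 4.05 in sucrose invertase (DCAR_009482), 6.78 in DCAR_009042, 5.06 in DCAR_009155 and 2.12 in DCAR_009199. It was −2.63 in DCAR_008777, −3.60 in DCAR_026288 and −2.40 in the pathogen-related protein DCAR_010700. The 3 genes of the P1 region were the least stable. With 1 library left out, the call was kept in 7 of 12 fits for DCAR_009042, 2 for DCAR_009155 and 1 for DCAR_009199. With root as a block it was lost for DCAR_009042 and DCAR_009199 (edgeR FDR 0.0510 and 0.0675). With 3 libraries a group, no test for an outlying library was run within a group. Leaving out dP2 POP replicate 3 ended the calls of sucrose invertase, DCAR_008777, DCAR_026288, DCAR_010700, DCAR_009155 and DCAR_009199.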

How the results depend on the processing

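The 111 genes called for a different tissue effect became 752 with the likelihood ratio test, 857 with DESeq2, 226 with all 18 libraries in the fit and 69 with root as a replicate block, while RLE size factors, no filter, edgeR's own filter and unrounded counts moved the count by less than 1.5 times. All 111 were among the genes of the likelihood ratio test and of DESeq2, 99 among those of all 18 libraries and 39 among those of the block. The genes with a tissue effect in pP became 2849 with the likelihood ratio test and 2984 with DESeq2.

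With each library left out in turn, counts ran from 10 to 220 for the difference of tissue effects, from 1401 to 3039 for dP2, from 769 to 2007 for pP and from 3995 to 6201 for the POP of dP2 against pP. The share of called genes with the larger set difference in the NPIP ran from 40.0% to 77.6%, and that with the dP1 effect nearer to pP from 81.0% to 95.8%.

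Among the genes named here, direction turned only in ones that were not called. DcMYB6 (DCAR_000385) had 0.23 with the block. With a library left out, the difference of tissue effects ran from −2.64 to 0.069 in DCAR_019074, from −4.11 to 0.56 in DCAR_020833 and from −1.96 to 0.096 in DCAR_025617. It ran from −0.067 to 4.42 in DCAR_009483, from −0.57 to 3.76 in DcGST1 (DCAR_003401), from −0.042 to 2.05 in DcUGalT1 (DCAR_009912) and from −0.090 to 1.77 in DcUCGXT1 (DCAR_021269). It ran from −2.80 to 2.84 in DcMYB113 (DCAR_008994), from −2.24 to 1.36 in DcMYB6, from −0.62 to 0.81 in DcMYB7 (DCAR_010745), from −2.42 to 0.078 in IRX15-LIKE (DCAR_010869) and from −0.82 to 0.053 in the APL homolog DCAR_009660. The cause was not tested. With 3 roots a group, the test called 26% of simulated differences of 2 on the log2 scale.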
